A study of Mus musculus with 28 samples.

Results

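Axon guidance ligands and receptors were examined in hair follicle stem cells (HFSCs) of old (24 months) and young (6 months) mice. The members are all genes whose symbol places them among the semaphorins (Sema), plexins (Plxn), neuropilins (Nrp), ephrins (Efn), Eph receptors (Epha, Ephb), Slits, Robos, netrins (Ntn) and Unc5 receptors. The RefSeq gene table of assembly GRCm38.p6 holds 69 such genes, 68 of them protein-coding and 1 an antisense RNA, Plxna4os1. Of these, 65 appear in at least 1 of the 5 deposited tables, which together name 18274 genes. Efna4, Epha6, Ntn3 and Plxnb3 are named in none.

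Mice of both ages were of the strain given as 132-C67BL/6J, and the labels name no treatment or allele. HFSCs live in the bulge of the hair follicle and rebuild it at each hair cycle. They were freed from skin with trypsin and sorted by flow cytometry for surface CD34 together with α6-integrin. RNA-seq had 3 old and 3 young samples, ATAC-seq (which counts fragments cut from open chromatin) had 4 of each age, and ChIP-seq for H3K27me3 had 3 of each. H3K4me3 and RNA polymerase II (Pol2) ChIP-seq had 2 of each age. The series design gives the ages of the ChIP-seq samples and calls all samples biological replicates. The sources used here do not say whether a sample came from 1 mouse or from pooled mice.

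Guidance cues steer growing axons, and many tissues use the same proteins to place cells, shape vessels and set borders. Slits bind Robo receptors, netrins bind Unc5 receptors and DCC, semaphorins bind plexins with or without a neuropilin, and ephrins bind Eph receptors on the neighbouring cell. Ephrin-A ligands are anchored in the membrane by lipid and ephrin-B ligands by a membrane-spanning part, so both ligand and receptor need cell contact. In developing tissues many promoters of such genes are bivalent: they carry H3K4me3, the mark of active or poised promoters, together with H3K27me3, the mark laid by Polycomb repressive complexes.

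Promoters of 4 members are shown because an H3K27me3 peak annotated to the promoter was called lower in old HFSCs, that peak overlaps the H3K4me3 peak, and the RefSeq start lies in the H3K4me3 peak. At most 6 members were considered, those with the largest such decreases. Sema5b, with a smaller one (−0.43, FDR 0.0462, in the authors' deposited table), is therefore not shown. Of the printed bases only those of Nrp2 lie in the H3K27me3 peak itself, which begins downstream of the run at Epha7 and Slit2 and ends upstream of it at Epha2. Each run is the 250 bases upstream of the start, 5′ to 3′ on the plus strand of GRCm38.p6, with every CG dinucleotide in capitals. The first encodes a semaphorin and VEGF co-receptor, the next an Eph receptor, the third a Robo ligand and the last the Eph receptor of epithelia.
Nrp2, chr1:62703067-62703316: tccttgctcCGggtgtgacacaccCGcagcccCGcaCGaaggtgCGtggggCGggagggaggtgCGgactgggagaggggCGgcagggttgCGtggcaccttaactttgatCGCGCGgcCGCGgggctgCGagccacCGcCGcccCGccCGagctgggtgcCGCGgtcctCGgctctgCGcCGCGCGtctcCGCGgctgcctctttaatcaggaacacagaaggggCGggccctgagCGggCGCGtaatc
Epha7, chr4:28812881-28813130: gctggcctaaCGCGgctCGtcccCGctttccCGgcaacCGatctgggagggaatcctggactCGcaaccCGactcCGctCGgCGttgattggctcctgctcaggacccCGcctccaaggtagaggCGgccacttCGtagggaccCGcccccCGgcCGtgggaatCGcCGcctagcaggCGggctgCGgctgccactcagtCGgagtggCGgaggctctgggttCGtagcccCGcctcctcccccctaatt
Slit2, chr5:47982905-47983154: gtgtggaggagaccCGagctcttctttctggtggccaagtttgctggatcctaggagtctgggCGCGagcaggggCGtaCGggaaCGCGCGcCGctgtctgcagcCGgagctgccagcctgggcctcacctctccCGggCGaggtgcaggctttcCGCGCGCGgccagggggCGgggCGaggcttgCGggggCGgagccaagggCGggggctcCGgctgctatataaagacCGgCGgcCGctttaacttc
Epha2, chr4:141300971-141301220: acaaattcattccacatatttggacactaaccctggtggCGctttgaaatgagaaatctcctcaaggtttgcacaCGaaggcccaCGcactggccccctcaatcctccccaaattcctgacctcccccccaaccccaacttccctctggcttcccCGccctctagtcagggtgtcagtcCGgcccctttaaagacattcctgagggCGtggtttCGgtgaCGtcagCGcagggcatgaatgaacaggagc

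The runs of Nrp2, Epha7 and Slit2 hold 32, 25 and 25 CG dinucleotides, and that of Epha2 holds 9. Over the 300-base windows that reach 50 bases past the start, the 75 windows of members had a median of 19 CG, against 7 over all 32851 windows of the reference table. The 19 windows of bivalent members had a median of 23. The TEAD motif GGAATG, counted on both strands, was found in 12.0% of member windows and in 14.7% of all windows, and 2 copies lie in the Epha2 window. The AP-1 motif TGANTCA was found in 4.0% of member windows and 7.81% of all windows, and the E-box CANNTG in 50.7% and 72.3%. Unc5d has no window in the reference table, and the windows of Sema6d lie outside its H3K4me3 peak.

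The sorted cells carried the marks of their labelled type. Of 13 genes of HFSCs and basal keratinocytes, 13 had an H3K4me3 promoter peak and 12 a Pol2 promoter peak in the authors' deposited tables. Of 8 immune markers none had an H3K4me3 promoter peak, against 1 of 6 endothelial, 2 of 6 nerve, 3 of 6 fibroblast and 2 of 6 melanocyte markers in the authors' deposited tables. The listed ATAC-seq peaks held 1572998 to 1946804 counts per old library and 2456110 to 2773284 per young library. These are sums over a selected list, not library depths, and peaks of members took 0.934% to 1.1% of them. Fewer cells of a type and less signal per cell cannot be told apart in such bulk samples.

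The RNA table is limited to 597 genes with adjusted p-values of at most 0.1, and 4 members are among them. Under an adjusted p of 0.05 the authors' deposited table calls 2 of these lower in old HFSCs, Sema3d and Sema4b, and 1 higher, Epha4. The background among all listed genes is 18.8% called lower and 38% called higher. The remaining 65 members are not in the list, so no RNA value is given for them. The table holds no values per sample.

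ATAC-seq peaks of members mostly held fewer counts in old libraries. The table lists 78 peaks assigned to 30 members, and 69 of them (88.5%) had a lower mean count in old libraries, against 85.9% of all listed peaks. With the counts as deposited, edgeR called 37 peaks lower in old libraries (47.4%, against a background of 46.4% of all 7849 listed peaks) and 3 higher (3.85%, background 5.43%). Counts of the 2 ages did not overlap at 31 peaks, 26 of them lower in old libraries (39.7%, background 40.7% in either direction). The shares of members thus lay near those of all listed peaks. Leaving out 1 library at a time gave 13 to 31 member peaks called lower, with 13 without old replicate 3, 21 without old replicate 4, 19 without young replicate 3 and 17 without young replicate 4, and 1 to 3 called higher, with 1 without old replicate 3. Over all listed peaks the share called lower was then 18% to 40.7% and the share called higher 1.8% to 4.75%. Of the 30 peaks whose values are given below 25 were called, and 7 of these kept the call without each library in turn: the Slit2, Robo1 and Sema6d promoters, a Robo1 intron peak, a Sema3c intron peak and 2 Slit3 intron peaks. The fold changes of all 30 kept their sign; calls that 1 library decides are named with that library beside the peak. TMM scaling, which sets the typical listed peak to no change, moved the median of all peaks up by 0.587 on the log2 scale. With it edgeR called 0 member peaks lower (background 0.701%; 2 at an unadjusted p under 0.05, and 2 called by DESeq2 with its own size factors) and 8 higher (10.3%, background 13.9%). Every listed peak had already been chosen for a difference between the same libraries, so a false discovery rate (FDR) here ranks listed peaks and no more. For each peak named below the log2 fold change of old over young is given with the counts as deposited and then with TMM scaling.

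H3K27me3 was called lower at 9 of the 31 members with a promoter peak, Sema6d, Nrp2, Epha7, Slit2, Epha2, Unc5d, Unc5a, Robo3 and Sema5b, in the authors' deposited table (29%, against a background of 14.3% of 4580 genes). It was called higher at 1, Ephb2 (3.23%, background 4.13%). Promoter peaks are those the tables place at most 1 kb from a start, and a gene takes the call of its promoter peak with the lowest FDR, at an FDR under 0.05. The median log2 fold change of these members was −0.24, against −0.13 over all genes in the authors' deposited table. H3K4me3 was called lower at 52 of 52 members (100%, background 97.9%) with a median of −1.565, against −1.43 over all genes in the same authors' deposited table; none was called higher (background 0.0259%), nor was any promoter peak higher at an unadjusted p under 0.05. Pol2 was called lower at 11 of 12 members (91.7%, background 88.5%) with a median of −2.925, against −2.39 over all genes in its authors' deposited table; here too none was called higher (background 0%), and none of 14 peaks was higher at an unadjusted p under 0.05. The shares of members called lower in H3K4me3 and Pol2 thus lay near those of all genes. The plot of promoter fold changes by family sets each member beside the quartiles of all genes.

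**Figure D1:**
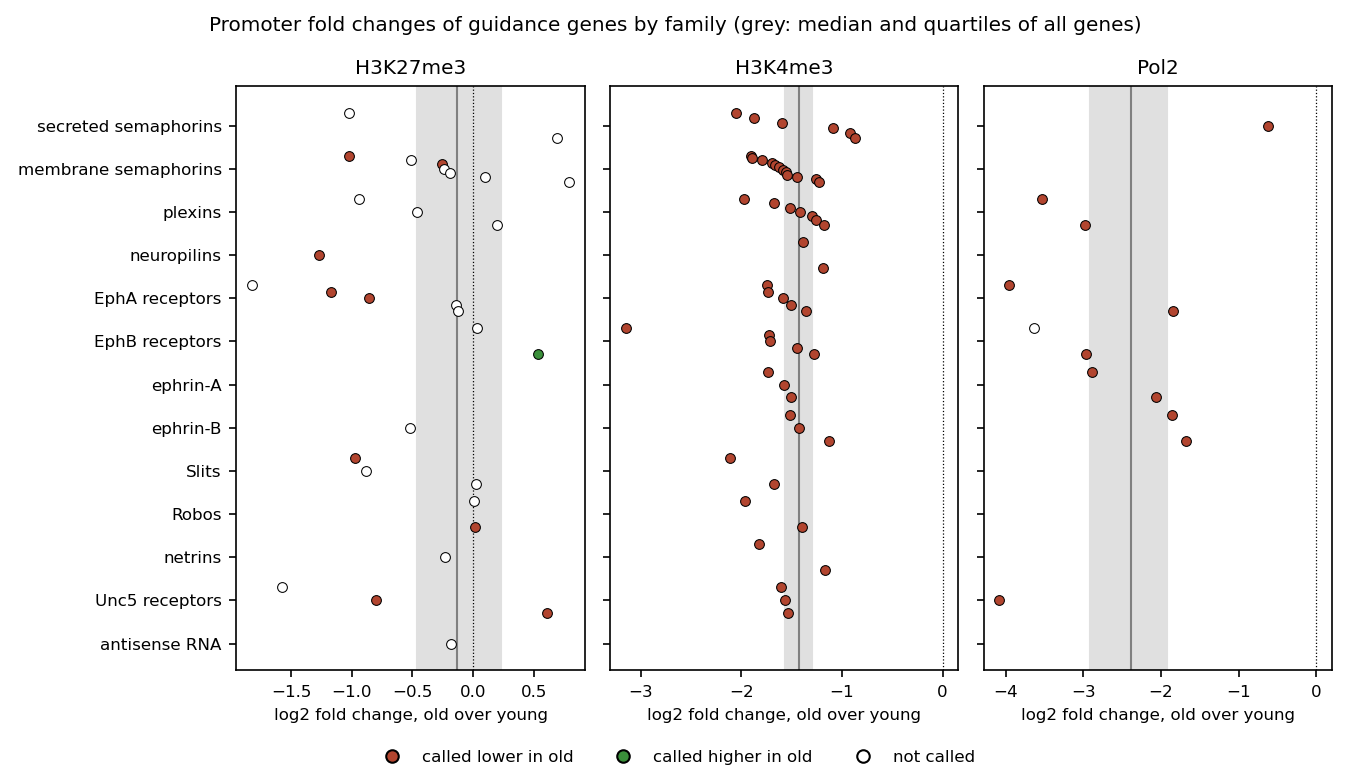
Log2 fold change of old over young at promoters (x axis), averaged over the promoter peaks of a gene in the authors' deposited tables, for each guidance gene (point) by family (y axis). Filled points are called lower or higher in old HFSCs by the gene's peak with the lowest FDR, which for Robo3 and Unc5a has another sign than the mean; the grey line and band are the median and quartiles of all genes. All 52 members with H3K4me3 lie left of 0, with Ephb2 farthest at −3.15.

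By the overlap of deposited promoter peaks, 20 of the 69 members were bivalent. Another 32 had an H3K4me3 promoter peak that no H3K27me3 peak overlaps, here called H3K4me3 only. Sema3b and Sema6b, counted among these, also had an H3K27me3 promoter peak, which lies apart from the H3K4me3 peak. H3K27me3 only was carried by 10 members, and 7 had neither mark as an annotated promoter peak. Bivalent genes made up 38.5% of the 52 members with an H3K4me3 promoter peak, against 15.4% of all 11585 such genes in the authors' deposited tables. Asked instead by the RefSeq windows, 6 of 59 members (10.2%) lie in peaks of both marks, against 3.27% of 27025 genes. Of the bivalent members with an H3K27me3 promoter peak of their own, 7 of 19 were called lower in H3K27me3 (36.8%), against 27.4% of all 1337 such genes in the authors' deposited tables. Of those with H3K27me3 only, 2 of 10 were called lower (20%), against 8.9% of 2999. The median change in H3K27me3 was −0.52 at bivalent members and 0.015 at members with H3K27me3 only, in the authors' deposited table, against −0.35 and −0.005 for all genes of each class. Pol2 had a promoter peak at 1 of 20 bivalent members, Epha2, and at 9 of 32 with H3K4me3 only (5% and 28.1%), against 7.31% and 29.1% of all genes of each class, in the authors' deposited tables.

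**Figure D2:**
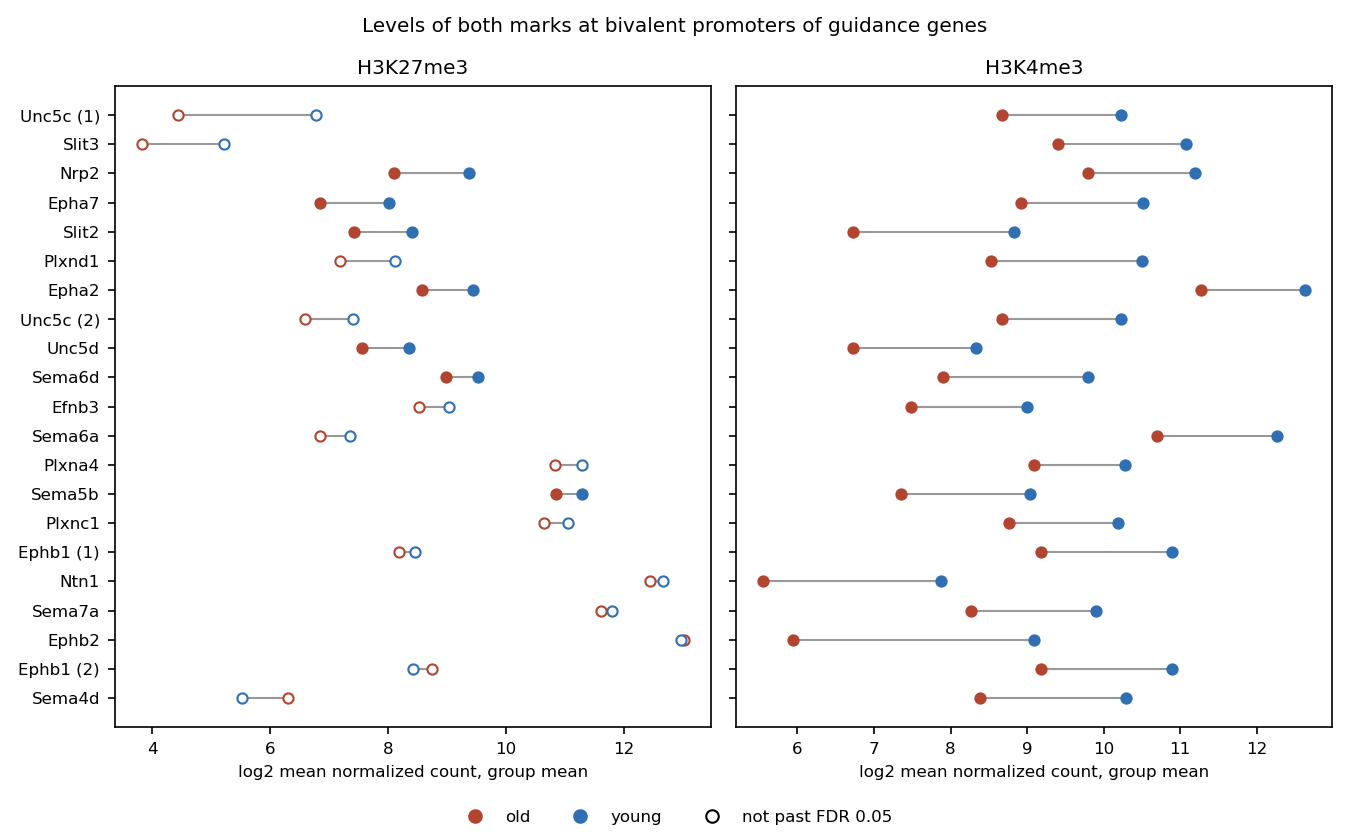
Group-mean levels of H3K27me3 (left) and H3K4me3 (right) in old and young HFSCs on the log2 scale (x axis) at bivalent promoters of guidance genes, 1 row for each overlapping H3K27me3 promoter peak (y axis, numbered where a gene has several, ordered by the change in H3K27me3). Values are the authors' group means, without replicate values; Nrp1 is left out because neither of its overlapping H3K27me3 peaks is annotated within 1 kb of its start, and for Ntn1 the H3K4me3 peak with the lower FDR is drawn. Old lies left of young for H3K4me3 in every row, while H3K27me3 ranges from −2.34 at Unc5c to 0.79 at Sema4d.

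Among the Slits, secreted Robo ligands, Slit2 was lower in old HFSCs in both marks and, with counts as deposited, in open chromatin. Its promoter ATAC-seq peak, chr5:47982801-47983600 on GRCm38, spans the bases printed above. It held 375, 322, 465 and 351 counts in old libraries, against 554, 551, 724 and 993 in young libraries. Each old library lay below each young one, and the means were 378 ± 61.8 in old and 706 ± 208 in young libraries (SD, n = 4 each). The log2 fold change was −0.90 (edgeR FDR 0.0119) and −0.29 with TMM scaling. The medians over all listed peaks were −0.64 and −0.05. At Slit2 the log2 level of H3K27me3 was 7.43 in old and 8.4 in young HFSCs (difference −0.97, FDR 0.00655) in the authors' deposited table. Its H3K4me3 level was 6.72 in old and 8.83 in young HFSCs (−2.11, FDR 0.0048) in the authors' deposited table, a larger decrease than at all but 2.98% of genes.

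Slit3 moved in different directions in different assays. Its RNA had a log2 fold change of 0.42 in the authors' deposited table (SE 0.129), with an adjusted p of 0.052 that missed the threshold. In intron 1, 4395 bases from the start, a peak held 554, 490, 323 and 544 counts in old libraries, against 258, 310, 257 and 252 in young libraries. Every old library was above every young one, with means of 478 ± 107 and 269 ± 27.3 (SD, n = 4 each) and a log2 fold change of 0.83 (edgeR FDR 0.0171; 1.42 with TMM scaling, FDR 0.000197). In intron 4 another peak held 352, 275, 224 and 351 counts in old libraries, against 687, 510, 519 and 651 in young libraries. There every old library was below every young one, with a log2 fold change of −0.98 (edgeR FDR 0.009) and −0.37 with TMM scaling. A further intron 4 peak, at −0.71 (FDR 0.0466; −0.14 with TMM), was called lower, while the intron 3 peak, at −0.73 (FDR 0.0673; −0.09 with TMM), was not. The further intron 4 peak lost its call without old replicate 1, 3 or 4 or young replicate 2, 3 or 4 (edgeR FDR 0.0519 to 0.126), and the intron 3 peak was called without young replicate 2 (−0.95, edgeR FDR 0.0431). H3K4me3 at the Slit3 promoter was 9.4 in old and 11.08 in young HFSCs (−1.68, FDR 5.58e-07) in the authors' deposited table. This mark was called lower at 97.9% of all genes with such a promoter peak. The H3K27me3 peak at the Slit3 promoter spans 675 bases and had a difference of −1.41 without passing the threshold (FDR 0.454) in the authors' deposited table. Within the gene, an exonic H3K27me3 peak was called lower, with a difference of −2.05 (FDR 0.00136), in the authors' deposited table. Slit1 carried H3K27me3 only, at 10.98 in old and 11.28 in young HFSCs over its main promoter peak (−0.30, FDR 0.179) in the authors' deposited table.

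The Robo receptors fell into 2 patterns. Robo1 and Robo2, single-pass receptors that mediate repulsion by Slits, had H3K4me3 without H3K27me3 at the promoter, and Robo3 and Robo4 the reverse. The Robo1 promoter peak held 1139, 835, 1002 and 599 ATAC-seq counts in old libraries, against 1269, 1356, 1752 and 1437 in young libraries. The ages did not overlap, and the log2 fold change was −0.70 (edgeR FDR 0.0153; −0.13 with TMM). A Robo1 intron peak, chr16:72897151-72897550, held 120, 36, 37 and 68 counts in old libraries, against 151, 196, 218 and 205 in young libraries. Its log2 fold change of −1.56 (edgeR FDR 0.0119; −0.98 with TMM, FDR 0.0802) was the lowest of the 78 member peaks. Of the 12 listed peaks of Robo1 and Robo2, 12 had a lower mean in old libraries and 8 were called lower (66.7%), against 85.9% and 46.4% of all listed peaks; with TMM scaling none was. Those 8 calls were 4 (33.3%) without old replicate 2, old replicate 3 or young replicate 4, and 5 (41.7%) without young replicate 1 or 2. Of all listed peaks 31.4% were called lower without old replicate 2, 18% without old replicate 3 and 26.7% without young replicate 4. The share of all listed peaks was 35.8% without young replicate 1 and 31.7% without young replicate 2. H3K4me3 at Robo1 was 8.52 in old and 10.48 in young HFSCs (−1.96, FDR 0.000549), and at Robo2 10.24 and 11.64 (−1.40, FDR 6.64e-06), in the authors' deposited table. At Robo3, known for commissural axons, H3K27me3 over the main promoter peak was 11.02 in old and 11.48 in young HFSCs (−0.46, FDR 0.0184) in the authors' deposited table. At Robo4, the endothelial Robo, it was 10.46 in old and 10.45 in young HFSCs (0.01, FDR 0.985) in the authors' deposited table.

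Of the netrins, secreted laminin-like cues, Ntn1 sat in an H3K27me3 domain of 48.4 kb. That domain was at 12.44 in old and 12.67 in young HFSCs (−0.23, FDR 0.328) in the authors' deposited table. Inside it lie 2 H3K4me3 peaks, one at 9.9 in old and 11.22 in young HFSCs (−1.32, FDR 2.06e-05) and a smaller one at 5.55 and 7.88 (−2.33, FDR 1.44e-06), in the authors' deposited table. Ntn4, a basement membrane netrin, had H3K4me3 only, at 10.74 in old and 11.91 in young HFSCs (−1.17, FDR 0.000134) in the authors' deposited table. No ATAC-seq peak of a netrin is listed.

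Among the Unc5 receptors, which mediate repulsion by netrins and can signal cell death, Unc5b had the lowest Pol2 fold change of the 12 members with a promoter peak. Its Pol2 level was 4.36 in old and 8.45 in young HFSCs (−4.08, FDR 1.01e-05) in the authors' deposited table, and its H3K4me3 10.24 and 11.78 (−1.54, FDR 2.04e-07). An intron peak of Unc5b held 132, 180, 136 and 112 ATAC-seq counts in old libraries, against 265, 287, 223 and 158 in young libraries. The highest old library passed the lowest young one, and the log2 fold change was −0.74 (edgeR FDR 0.0395; −0.17 with TMM). This call was lost without any library other than old replicate 2 and young replicate 4 (edgeR FDR 0.0614 to 0.0845). Unc5d was bivalent, with H3K27me3 at 7.55 in old and 8.36 in young HFSCs (−0.80, FDR 0.00572) and H3K4me3 at 6.72 and 8.33 (−1.61, FDR 0.000268), in the authors' deposited table. Its single intron ATAC-seq peak was low, with 27, 61, 18 and 13 counts in old libraries, against 26, 71, 89 and 115 in young libraries (−1.34, edgeR FDR 0.0392; −0.76 with TMM), and the ages overlapped. It was not called without old replicate 1, 3 or 4 or young replicate 2, 3 or 4 (edgeR FDR 0.0552 to 0.0934). Unc5c was bivalent too, with a promoter ATAC-seq peak of 625, 344, 602 and 472 counts in old libraries, against 832, 716, 653 and 869 in young libraries. Those ages did not overlap (−0.59, edgeR FDR 0.0304), and the difference was 0.01 with TMM scaling. The Unc5c call was lost without old replicate 2 or 4 or young replicate 1 or 4 (edgeR FDR 0.0529 to 0.0681). Unc5a had H3K27me3 only, called lower at its main start (−0.52, FDR 0.039), while its other 3 promoter peaks had differences of 0.14 to 2.06 and were not called, in the authors' deposited table.

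**Figure D3:**
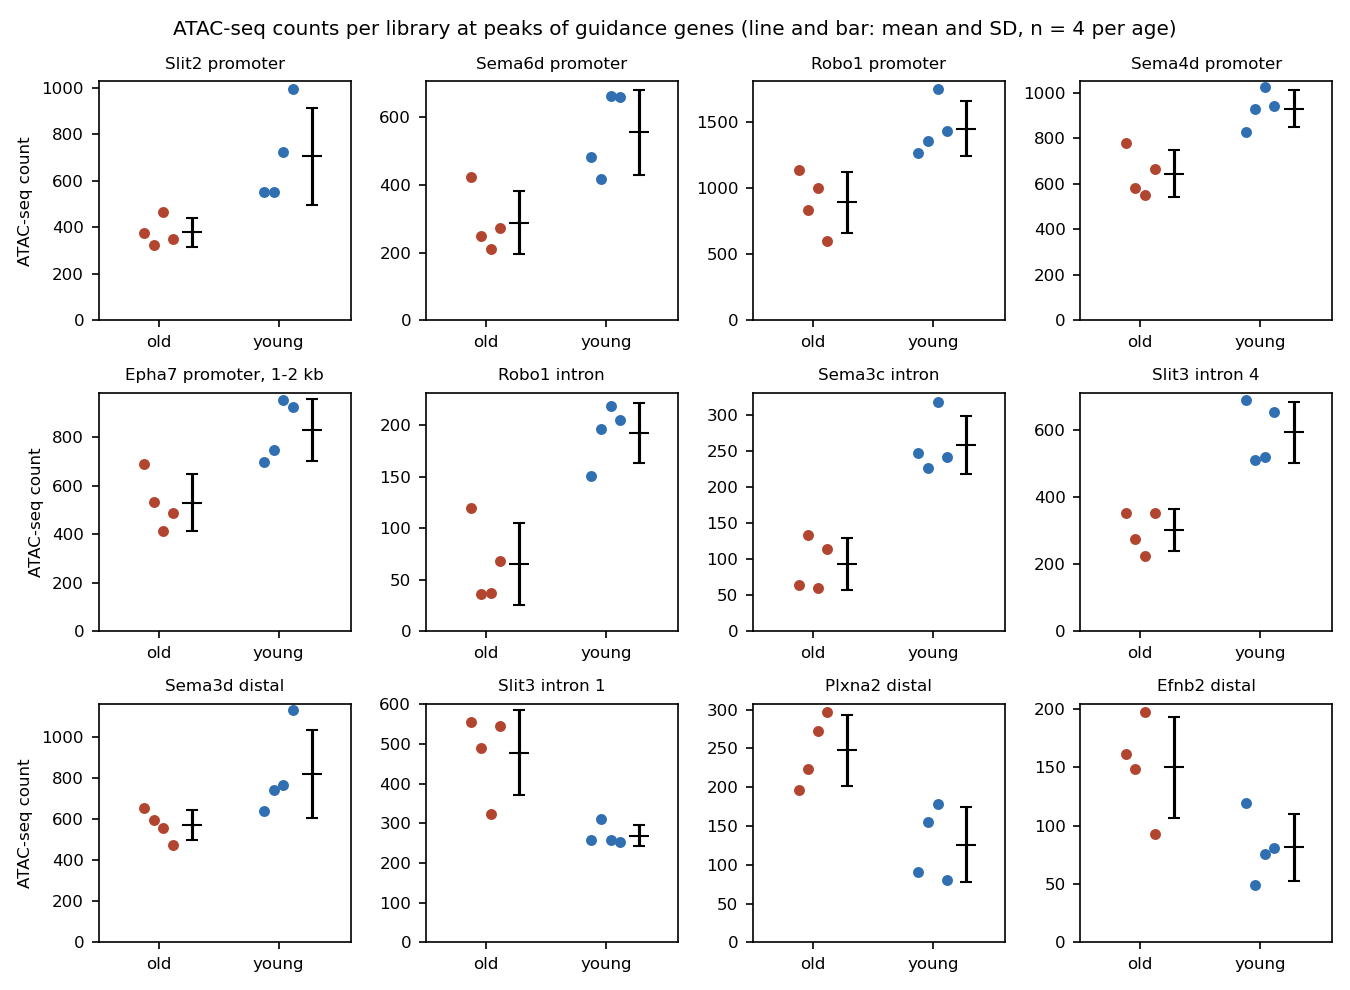
ATAC-seq counts as deposited (y axis, from 0) in each old and young library (x axis) at 12 peaks of guidance genes; points are libraries, lines and bars the mean and SD of 4 libraries per age. Old counts lie below young ones without overlap at the Slit2, Robo1 and Sema4d promoters and at the Epha7 peak 1720 bases from its start. The same holds in the Robo1, Sema3c and Slit3 intron 4 peaks. At Slit3 intron 1 and Plxna2 old counts lie above young ones without overlap.

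Class 3 semaphorins are the secreted ones, and Sema3d gave the lowest RNA fold change of the listed members. Its log2 fold change was −1.04 (SE 0.183, adjusted p 1.2e-05) in the authors' deposited table. H3K4me3 at its promoter was 7.54 in old and 9.14 in young HFSCs (−1.60, FDR 3.76e-05) in the authors' deposited table, and no H3K27me3 or Pol2 promoter peak is annotated to it. A distal peak, chr5:12243151-12243950, held 654, 597, 560 and 476 ATAC-seq counts in old libraries, against 643, 745, 768 and 1132 in young libraries. The highest old library passed the lowest young one, and the log2 fold change was −0.52 (edgeR FDR 0.0368) but 0.07 with TMM scaling. Without young replicate 4 the value was −0.33 (edgeR FDR 0.123), and the call was also lost without old replicate 2, 3 or 4 or young replicate 3 (edgeR FDR 0.0529 to 0.0729). The other Sema3d peak, in its intron 6, held 89, 57, 59 and 51 counts in old libraries, against 41, 82, 110 and 183 in young libraries, and was not called (−0.70, FDR 0.11; −0.09 with TMM).

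Sema3c, a cue of vessel and heart development, held one of the clearest ATAC-seq differences in its intron 7. That peak, chr5:17673501-17674000, had 65, 133, 60 and 114 counts in old libraries, against 247, 227, 318 and 242 in young libraries. Every old library was below every young one, with means of 93.0 ± 36.1 and 259 ± 40.6 (SD, n = 4 each). The log2 fold change was −1.47 (edgeR FDR 0.0077) and −0.87 with TMM scaling (FDR 0.0688). Its H3K4me3 promoter level was 10.24 in old and 11.33 in young HFSCs (−1.09, FDR 0.000462) in the authors' deposited table. Sema3a, the collapsing cue of neuropilin-1, had 8.34 in old and 9.72 in young HFSCs over its main H3K4me3 peak (−1.38, FDR 0.000146) in the authors' deposited table. One Sema3a intron peak held 566, 467, 411 and 493 ATAC-seq counts in old libraries, against 741, 621, 721 and 884 in young libraries (−0.62, edgeR FDR 0.0222; −0.02 with TMM), without overlap and, without old replicate 3, with no call (edgeR FDR 0.0525).

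Sema3e, the ligand of plexin-D1, was the only secreted semaphorin with Pol2 promoter peaks, of which it has 2. Over the main one Pol2 was 9.47 in old and 11.2 in young HFSCs (−1.73, FDR 0.0203) in the authors' deposited table. The other, of lower level, was at 5.86 in old and 5.36 in young HFSCs and was not called (0.50, FDR 0.619). H3K4me3 at Sema3e was 12.09 in old and 12.96 in young HFSCs, the smallest decrease of the 52 members (−0.87, FDR 0.0102), in the authors' deposited table. An intron peak of Sema3e held 105, 48, 102 and 33 ATAC-seq counts in old libraries, against 145, 156, 116 and 138 in young libraries. The ages did not overlap (−0.95, edgeR FDR 0.0441; −0.39 with TMM). The call held only with all 8 libraries or without old replicate 1 (edgeR FDR 0.0518 to 0.0944 without another). Sema3b had the largest H3K4me3 decrease of the class, with 4.72 in old and 6.77 in young HFSCs (−2.05, FDR 0.000124), in the authors' deposited table, over a peak of low level.

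Of the membrane-bound semaphorins, Sema6d, a ligand of plexin-A receptors, had the most listed ATAC-seq peaks, 6, and also the most called ones. Of all listed peaks 46.4% were called lower, and with TMM scaling 0 member peaks were. The Sema6d promoter ATAC-seq peak held 425, 250, 211 and 272 counts in old libraries, against 482, 419, 664 and 662 in young libraries. The highest old library passed the lowest young one, and the log2 fold change was −0.94 (edgeR FDR 0.0148; −0.36 with TMM). A distal peak, chr2:124702801-124703150, held 106, 58, 40 and 51 counts in old libraries, against 131, 99, 184 and 180 in young libraries (−1.22, edgeR FDR 0.0234; −0.64 with TMM). The next one, chr2:124718951-124719300, held 93, 38, 54 and 64 counts in old libraries, against 125, 119, 126 and 211 in young libraries (−1.22, edgeR FDR 0.0219; −0.62 with TMM), without overlap. Its neighbour at 124719651 had a log2 fold change of −1.03 (edgeR FDR 0.0213; −0.46 with TMM), and the Sema6d intron 5 peak one of −1.43 (FDR 0.0312; −0.79 with TMM) that rests partly on 206 counts in 1 young library. Without that library, young replicate 4, the intron 5 value was −0.70 (edgeR FDR 0.167), and the call was also lost without old replicate 2 or 3 (edgeR FDR 0.0512 and 0.0718). The distal peak at 124702801 lost its call without old replicate 3 or young replicate 3 (edgeR FDR 0.055 and 0.0515), the one at 124718951 without young replicate 4 (edgeR FDR 0.0508) and the one at 124719651 without old replicate 3 (edgeR FDR 0.0518). The distal peak 195220 bases away was not called (−0.55, FDR 0.0926; 0.05 with TMM).

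Sema6d has 2 H3K27me3 promoter peaks. Over the bivalent start, chr2:124606342-124615234, the level was 8.99 in old and 9.52 in young HFSCs (−0.54, FDR 0.033), and over the upstream start at 124089222 it was 6.38 and 7.88 (−1.51, FDR 1.36e-05), in the authors' deposited table. H3K4me3 was annotated at the bivalent Sema6d start only, at 7.9 in old and 9.79 in young HFSCs (−1.90, FDR 1.29e-06), in the authors' deposited table.

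Sema4b RNA had a log2 fold change of −0.44 (SE 0.133, adjusted p 0.041) in the authors' deposited table. Its 2 H3K4me3 promoter peaks were at 10.94 and 11.04 in old HFSCs, against 12.22 and 12.28 in young HFSCs (−1.28 and −1.24), in the authors' deposited table, a decrease smaller than the −1.42 median of all promoter peaks. The listed ATAC-seq peak of Sema4b, 2310 bases from the start, held 84, 63, 64 and 74 counts in old libraries, against 78, 170, 88 and 134 in young libraries, with overlap and no call (−0.72, edgeR FDR 0.0706; −0.12 with TMM). Sema4d, the ligand of plexin-B1, had 780, 581, 550 and 665 counts at its promoter in old libraries, against 827, 928, 1025 and 940 in young libraries. The ages did not overlap (−0.53, edgeR FDR 0.0265), and the value was 0.06 with TMM scaling. Without old replicate 3 or young replicate 3 the Sema4d peak was not called (edgeR FDR 0.0615 and 0.0583). H3K4me3 at Sema4d was 8.38 in old and 10.29 in young HFSCs (−1.91, FDR 2.19e-07), while H3K27me3 was 6.3 and 5.52 (0.79, FDR 0.534), in the authors' deposited table. Sema5b was bivalent in an H3K27me3 domain of 20.2 kb, at 10.84 in old and 11.28 in young HFSCs (−0.43, FDR 0.0462), in the authors' deposited table.

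Both neuropilins, co-receptors of class 3 semaphorins and of VEGF, were bivalent. At Nrp2, H3K27me3 was 8.1 in old and 9.38 in young HFSCs (−1.27, FDR 1.27e-08) over the promoter and 7.07 and 8.29 (−1.22, FDR 0.000332) over the adjoining intron, in the authors' deposited table. Its H3K4me3 was 9.8 in old and 11.19 in young HFSCs (−1.39, FDR 2.48e-05) in the authors' deposited table, close to the median of all promoter peaks. An Nrp2 intron 12 peak held 187, 375, 223 and 322 ATAC-seq counts in old libraries, against 483, 432, 337 and 615 in young libraries, with overlap (−0.75, edgeR FDR 0.0301; −0.13 with TMM). It lost the call without old replicate 1 or 3 or young replicate 4 (edgeR FDR 0.0599 to 0.0711). At Nrp1 the H3K4me3 peak, 10.38 in old and 11.56 in young HFSCs (−1.19, FDR 3.82e-05), meets 2 H3K27me3 peaks, neither of them called, in the authors' deposited tables. One is annotated to a microRNA, at 7.52 in old and 8.15 in young HFSCs (−0.63, FDR 0.0721), and the other lies 2 to 3 kb from an Nrp1 start, at 6.08 and 5.87 (0.21, FDR 0.871), in the authors' deposited table.

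Plexins are the main signalling receptors of semaphorins. Of the 9, 3 had an H3K27me3 promoter peak, beside 31 of all 69 members. None of the 3 was called, beside 14.3% of all genes with such a peak called lower and 4.13% called higher. Plxnd1 came closest, at 7.18 in old and 8.12 in young HFSCs (−0.94, FDR 0.0549), with H3K4me3 at 8.53 and 10.5 (−1.97, FDR 4.59e-08), in the authors' deposited tables. Plxnb1, the receptor of Sema4d, had Pol2 at 5.77 in old and 9.31 in young HFSCs (−3.53, FDR 0.000209) in the authors' deposited table. No H3K4me3 promoter peak carries the Plxnb1 name, but its RefSeq start lies in one without a gene symbol, at 11.6 in old and 13.18 in young HFSCs (−1.59, FDR 1.55e-06), in the authors' deposited table. Plxna2 had Pol2 at 6.17 in old and 9.15 in young HFSCs (−2.98, FDR 0.0021) in the authors' deposited table. A distal Plxna2 peak, at −8829 bases from the start, was the one with the highest fold change of the 78, with 197, 224, 272 and 297 ATAC-seq counts in old libraries, against 91, 155, 178 and 80 in young libraries. Every old library was above every young one (0.97, edgeR FDR 0.0247; 1.58 with TMM, FDR 0.00112). Without old replicate 3 the Plxna2 value was 0.92 and just missed the threshold (edgeR FDR 0.053). Plxna1 and Plxnb2 had H3K4me3 only, at 9.97 in old and 11.65 in young HFSCs (−1.68, FDR 9.82e-07) and at 10.58 and 11.84 (−1.26, FDR 1.33e-05), in the authors' deposited table.

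Among the Eph receptors, the receptor tyrosine kinases for ephrins, Epha4 had opposite signs in RNA and Pol2. Its RNA log2 fold change was 0.63 (SE 0.115, adjusted p 2.5e-05) in the authors' deposited table. Pol2 at its promoter was 5.1 in old and 9.06 in young HFSCs (−3.96, FDR 0.00012), and H3K4me3 10.63 and 12.38 (−1.75, FDR 2.17e-07), in the authors' deposited tables. Over all genes with a promoter peak, Pol2 was called lower at 88.5% and higher at 0%, and H3K4me3 lower at 97.9%. A fall in Pol2 was thus not particular to Epha4. No ATAC-seq peak of Epha4 is listed. Epha2, which signals in epithelia, was the one bivalent member with Pol2, at 9.14 in old and 10.99 in young HFSCs (−1.85, FDR 0.00976) in the authors' deposited table. Its H3K4me3 was 11.27 in old and 12.63 in young HFSCs (−1.36, FDR 4.73e-06), and H3K27me3 next to the start was 8.58 and 9.44 (−0.86, FDR 0.0021), in the authors' deposited tables. The H3K27me3 peak overlaps the H3K4me3 peak of Epha2 by 785 bases and ends before the sequence printed above.

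Epha7 was lower in old HFSCs in both marks and, with counts as deposited, in open chromatin. Of all genes with a promoter peak, 97.9% were called lower in H3K4me3 (median −1.43) and 14.3% in H3K27me3. The median of all listed ATAC-seq peaks was −0.64 with counts as deposited. H3K27me3 was 6.85 in old and 8.02 in young HFSCs (−1.17, FDR 0.0101) and H3K4me3 8.92 and 10.51 (−1.59, FDR 3.05e-06) at Epha7 in the authors' deposited tables. An ATAC-seq peak 1720 bases from its start, inside both marks, held 689, 535, 412 and 487 counts in old libraries, against 700, 746, 954 and 924 in young libraries. The ages did not overlap (−0.65, edgeR FDR 0.022), and the value was −0.06 with TMM scaling. The Epha7 call was lost without old replicate 3 or young replicate 3 (edgeR FDR 0.0548 and 0.0509).

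Ephb2, a receptor of ephrin-B ligands, had the largest H3K4me3 decrease of the 52 members, with no called change in H3K27me3 at the same start. Its H3K4me3 peak was 5.94 in old and 9.09 in young HFSCs (−3.15, FDR 2.81e-10), a decrease that 0.44% of genes exceeded, in the authors' deposited table. The H3K27me3 domain over this start spans 51.5 kb and was at 13.01 in old and 12.96 in young HFSCs (0.06, FDR 0.894) in the authors' deposited table. At 2 further starts within Ephb2 H3K27me3 was called higher, at 11.62 in old and 10.96 in young HFSCs (0.67, FDR 0.000179) and at 10.06 and 9.19 (0.87, FDR 1.13e-05), in the authors' deposited table. Ephb1 was bivalent without a called change in H3K27me3, and its ATAC-seq peak held 109, 144, 110 and 88 counts in old libraries, against 199, 154, 201 and 278 in young libraries (−0.88, edgeR FDR 0.0286; −0.29 with TMM), without overlap. The Ephb1 peak was not called without old replicate 3 or 4 or young replicate 4 (edgeR FDR 0.0546 to 0.0688). Ephb4, the receptor of ephrin-B2, had H3K4me3 at 11.26 in old and 12.71 in young HFSCs (−1.45, FDR 4.52e-06) in the authors' deposited table. Ephb6, which lacks kinase activity, had Pol2 at 6.34 in old and 9.3 in young HFSCs (−2.96, FDR 0.00115) in the authors' deposited table. Pol2 at Ephb3 was 5.12 in old and 8.76 in young HFSCs, a difference of −3.64 that was not called (FDR 0.126), in the authors' deposited table.

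**Figure D4:**
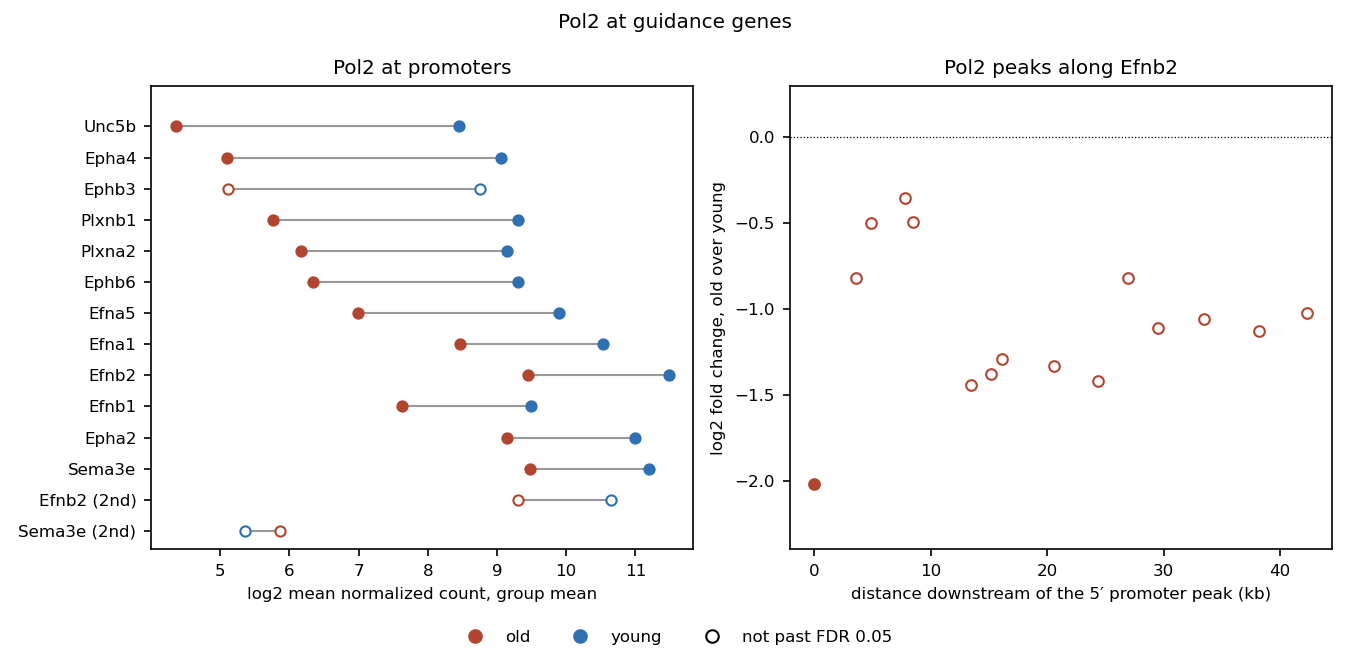
Left: group-mean Pol2 levels in old and young HFSCs on the log2 scale (x axis) at the 14 promoter peaks of 12 guidance genes (y axis), from the authors' deposited table, without replicate values; open points did not pass FDR 0.05. Right: log2 fold change of old over young (y axis) of the 15 Pol2 peaks of Efnb2 against distance downstream of its 5′ promoter peak in kb (x axis). Only the 5′ promoter peak, at −2.02, passed the threshold. The other promoter peak, at −1.33 (FDR 0.0711), did not.

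Ephrins are the membrane-anchored ligands of the Eph receptors. Of the 8 ephrin genes 4 had a Pol2 promoter peak, all called lower beside 88.5% of all genes with such a peak, and 1, Efnb3, had an H3K27me3 promoter peak, in the authors' deposited tables. Efna1 had Pol2 at 8.47 in old and 10.53 in young HFSCs (−2.06, FDR 0.00904), and Efna5 at 6.99 and 9.89 (−2.89, FDR 0.00139), in the authors' deposited table. Efnb1 had Pol2 at 7.63 in old and 9.49 in young HFSCs (−1.86, FDR 0.0177), and Efnb2 at 9.45 and 11.48 (−2.02, FDR 0.0117), in the authors' deposited table. H3K4me3 at the Efna1 start lies in a peak annotated to Slc50a1, at 12.84 in old and 14.28 in young HFSCs (−1.45, FDR 7.28e-06), in the authors' deposited table. H3K4me3 at Efnb1 was 12.32 in old and 13.75 in young HFSCs (−1.43, FDR 3.32e-05) in the authors' deposited table.

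Efnb2, the ephrin ligand of Ephb4, had Pol2 peaks along its whole length. Of its 15 peaks 13 lie outside promoters, and their fold changes ran from −1.44 to −0.35, none of them called, in the authors' deposited table. Its 2 promoter peaks were at −2.02 (FDR 0.0117), which was called, and −1.33 (FDR 0.0711), which was not. The H3K4me3 domain of Efnb2 had 13.64 in old and 14.76 in young HFSCs (−1.13, FDR 0.00323) in the authors' deposited table, a smaller decrease than at most promoters. The 10 ATAC-seq peaks assigned to Efnb2 as the nearest gene were mixed, with 4 higher and 6 lower means in old libraries. They lie 6923 to 1053673 bases from its start. A distal one, 1006523 bases from the start, held 161, 148, 197 and 93 counts in old libraries, against 119, 49, 76 and 81 in young libraries, with overlap (0.88, edgeR FDR 0.044; 1.45 with TMM, FDR 0.00349). Another, at chr8:7710851-7711200, held 111, 97, 103 and 98 counts in old libraries, against 178, 176, 150 and 164 in young libraries, without overlap (−0.71, edgeR FDR 0.0452; −0.12 with TMM). Both Efnb2 calls hung on single libraries: the higher one held without old replicate 4 or young replicate 1 but not without any other (edgeR FDR 0.0649 to 0.106), and the lower one was lost without each of the 8 (edgeR FDR 0.0552 to 0.0746). Of the 9 member peaks with a higher mean in old libraries, 2 were of Efna5 and 1 each of Plxna2, Plxna4 and Slit3.

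Of the 78 member peaks 7 overlap both an H3K4me3 and an H3K27me3 peak, at Slit2, Sema6d, Epha7, Sema4d, Ephb1, Unc5c and Plxnd1. All 7 had a lower mean count in old libraries and 6 were called lower, against 98.4% and 57.6% of the 255 such peaks of any gene. With TMM scaling none of the 7 was called, and 3 of them, at Sema4d, Unc5c and Plxnd1, had values above 0. Leaving out 1 library at a time gave 3 to 6 calls among the 7, with 3 without old replicate 3 (against 33.7% of all such peaks) and 4 without old replicate 4, young replicate 3 or young replicate 4. Of all 255 such peaks 31% to 52.2% were then called lower. The Plxnd1 peak was the one not called (−0.50, edgeR FDR 0.0572; 0.09 with TMM).

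Outside promoters, the 197 H3K27me3 peaks of members were mostly not called. The authors' deposited table calls 7 of them lower (3.55%, against 1.67% of all such peaks) and 9 higher (4.57%, against 2.6%). The higher ones include an exonic peak of Epha10 at 8.06 in old and 6.95 in young HFSCs (1.11, FDR 0.00113) and a peak near an Ephb2 start at 8.7 and 7.63 (1.07, FDR 0.00109), in the authors' deposited table. Of the 28 H3K4me3 peaks of members outside promoters, 17 were called lower (60.7%, against 53.2% of all such peaks) and none higher (against 0.698%) in the authors' deposited table. One of them, near Efna1, is at the table's lowest level in old HFSCs, so no fold is given for it. Of the 19 such Pol2 peaks 1 was called, in an exon of Ephb6 (−2.55, FDR 0.00342), a share of 5.26% called lower against 20.6% of all such peaks and 0.0985% called higher, in the authors' deposited table.

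Other genes of the pathway were read from a list of 68 co-receptors, adaptors and effectors. In RNA the authors' deposited table lists 4 of them and calls 1 lower, Rgma, a repulsive ligand of neogenin (−0.48, adjusted p 0.0461), and 2 higher, the adhesion molecule Nrcam (0.89, adjusted p 1.35e-05) and the Eph exchange factor Ngef (0.79, adjusted p 0.0153). Among all 597 listed genes 18.8% were called lower and 38% higher. Mical1, an enzyme that acts on actin downstream of plexins, was listed but not called (−0.69, adjusted p 0.0657) in the authors' deposited table. H3K27me3 was called lower at 3 of 15 promoters, Dscam, Kalrn and Rnd1, and higher at none, beside 14.3% and 4.13% of all genes, in the authors' deposited table. H3K4me3 was called lower at 58 of 58 and Pol2 at 21 of 22, beside 97.9% and 88.5% of all genes, in the authors' deposited tables. Of their 71 ATAC-seq peaks, 40 were called lower (56.3%) and 3 higher (4.23%) with the counts as deposited, beside 46.4% and 5.43% of all listed peaks, and 17 to 34 lower and 0 to 4 higher without 1 library at a time. The lower calls of this list were 34 without old replicate 1, 17 without old replicate 3 and 21 to 27 without any other library. The higher ones were 0 without old replicate 1 or 3 or young replicate 2 or 3, and 1 without old replicate 2 or young replicate 1. Lower calls then made up 23.9% to 47.9% of the 71 peaks, beside 18% to 40.7% of all listed peaks. Higher calls made up 0% to 5.63%, beside 1.8% to 4.75%. With TMM scaling 1 was called lower and 8 higher (1.41% and 11.3%), beside 0.701% and 13.9% of all listed peaks. The median change in H3K4me3 of the list was −1.42 in the authors' deposited table, beside −1.565 for the ligands and receptors.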

How the data were processed

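Groups came from sample titles, ages also from the series design. Per the submitters' processing notes, RNA was handled with STAR 2.5.2b (GRCm38.p5), featureCounts and DESeq2 1.22.2, ATAC-seq with BWA 0.7.12 (GRCm38), and ChIP-seq with BWA 0.7.15 (GRCm38), MACS2 2.2.7.1 and DiffBind 2.14.0. The deposited RNA table gives the mean normalized signal, log2 fold change, standard error, Wald score, p-value and adjusted p-value, per the file headers. The deposited ATAC-seq table gives a whole-number count per library, its −log10 p-value and a log2 ratio, per the file headers; no listed peak has a log2 ratio smaller than 0.50 in size. The deposited ChIP-seq tables give the log2 of mean normalized counts per age, their log2 difference, p-value and FDR, per the file headers; young minus old was turned to old over young. The direction of RNA rests on the file header. The sources used here do not say whether counts were scaled before deposit. The lowest level in each ChIP-seq table is not a measurement. Sequencing depth is unknown for RNA and ChIP-seq.

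ATAC-seq counts were tested with edgeR 4.0.16 (quasi-likelihood, equal library sizes, two-sided, Benjamini-Hochberg over 7849 peaks; filterByExpr removed none) in R 4.3.3, checked on simulated data. Other results are the authors' values, joined with Python 3.11.15 and pandas 2.3.3. Calls use 0.05. Bivalent means that peaks of H3K4me3 (at a promoter) and H3K27me3 share at least 1 bp. Sequences are from RefSeq, GRCm38.p6; 59 of 69 members matched a promoter window. Named were every listed RNA member, the 10 member ATAC-seq peaks lowest and highest by fold among those called, the 8 strongest calls per ChIP-seq table and direction, and a list of well-known members; further members and peaks shown beside them were chosen after their values were seen. No pair of ATAC-seq libraries was a duplicate. The members and lists were chosen with earlier results of these data known. A result of a marker gene is not reported here.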

Additional observations from a re-analysis of the deposited data

Results flagged for a closer look

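At 2 of the 60 groups of 4 libraries examined over 30 named ATAC-seq peaks, 1 library stood apart from the other 3 by Dixon's test, and chance gives about 1 in 20. At the distal Sema6d peak at 124718951 the highest young library held 211 counts, beside 125, 119 and 126 in the other young libraries and 93, 38, 54 and 64 in the old ones. At the Slit3 intron 1 peak the highest young library held 310 counts, beside 258, 257 and 252 in the other young libraries and 554, 490, 323 and 544 in the old ones. Leaving out 1 library at a time, the fold change stayed between −1.48 and −0.98 at the Sema6d peak and between 0.75 and 0.97 at the Slit3 peak.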

How the results depend on the processing

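The ATAC-seq counts of calls depend on scaling. Of the 78 member peaks, 37 were called lower and 3 higher with counts as deposited. TMM scaling gave 0 and 8, scaling by summed counts 1 and 8, DESeq2 with its own size factors 2 and 8, and an FDR under 0.01 gave 2 and 0. Over all listed peaks the shares were 46.4% and 5.43% as deposited and 0.701% and 13.9% with TMM. For summed counts, DESeq2, the stricter FDR and the replicate block no such share is given. Those counts are therefore not read as particular to the members. Leaving out 1 library gave 13 to 31 lower and 1 to 3 higher. The replicate number as a block gave 8 and 1, but same-numbered libraries did not deviate together (correlations −0.0266, −0.109, 0.0354 and −0.186), so the numbers were not taken as pairs. With TMM, summed counts and DESeq2, the distal Sema3d peak turned to 0.0729, 0.0024 and 0.0625 and the Plxnd1 peak to 0.0895, 0.019 and 0.0794; with TMM and DESeq2, the Sema4d promoter turned to 0.0629 and 0.053 and the distal Sema6d peak at 124848801 to 0.0453 and 0.0334; with TMM, the Unc5c promoter turned to 0.0063. At the promoters, H3K27me3 calls lower fell to 5 of 31 members at FDR under 0.01. Calls higher were 2 within 3 kb and 6 of 41 members over peaks anywhere. No share over all genes is given at these settings, nor for the RNA calls below, so these counts are not read as particular to the members. The H3K27me3 median was −0.19 after subtracting the median of all promoter peaks, −0.20 within 3 kb and −0.43 by the peak of highest level. The H3K4me3 median was −0.145 after that subtraction and −1.585 within 3 kb, and the Pol2 median −0.645 after it. Bivalent members were 6 by RefSeq windows, an alternative chosen after seeing the data. RNA calls lower were 1 at an adjusted p under 0.01, and calls higher 2 over all listed genes. The cause was not tested for any of these. No paired analysis or leaving out of a sample was possible for RNA and ChIP-seq, because the tables hold no values per sample. Counts over listed peaks are not depths, which limits what scaling can settle.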
